A study of Mus musculus with 21 samples.

Results

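The genes described here are 53 genes of DNA replication and S phase, chosen by symbol from the 23420 genes of a count table. All 53 were found in the table. They build the licensed origin, the replicative helicase, the polymerases, the supply of deoxynucleotides, the fork checkpoint and the copying of chromatin. The 21 RNA-Seq libraries came from inflammatory monocytes (IMs) of mice, with no transgene or deletion named in the labels, sorted as live CD45+ CD11b+ Ly6C-high Ly6G- cells. Bone marrow (BM) IMs came from tumor-free FVB mice (n = 3) and tumor-free DBA2 mice (n = 3). Tumor-infiltrating monocytes (TIMs) came from FVB mice that had received 500000 KAL-LN2-E1 (LN2E1) cells into the lung, a squamous lung cancer line passaged through mice, and were taken from the primary tumor (n = 5) and from lymph node metastases (n = 5). LN4K1 lung TIMs (n = 5) came from lungs of DBA2 mice given 300000 LN4K1 cells, another mouse lung cancer line, by vein. The study describes adult mice of both sexes and does not pair an age with a library. Its methods call the replicates technical, and nothing ties each library to its own animal, so p-values measure only the spread between these libraries and not that between animals. Each tumor model is a single transplanted line in a single strain. The study compared TIMs with the BM IMs of the same strain to ask what monocytes express once they are in tumors, and no IMs from tumor-free lung or lymph node were analysed here, so an effect of the tumor and of the tissue cannot be told apart.

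Cells copy their genome once per division. In G1 the origin recognition complex, CDC6 and CDT1 load the MCM2-7 ring onto origins, and at the start of S phase CDC45 and the GINS complex join it to form the active CMG helicase. Polymerases, the PCNA clamp and its loader then follow the fork, while ribonucleotide reductase and thymidylate synthase feed it with deoxynucleotides. E2F transcription factors, held back by RB proteins in resting cells, bind short GC-rich sites in the promoters of many of these genes. Monocyte precursors divide in the marrow, whereas circulating monocytes and most of their progeny in tissue divide little.

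Promoter sequence was available from RefSeq (GRCm38.p6, 250 bases before to 50 after a transcription start) for 43 of the 53 genes. The windows of 3 members are printed because they belong to the 2 most abundant members per kilobase with an E2F motif and to the most abundant without one. The motif was searched as TTTCCCGC, TTTCGCGC, TTTGCCGC and TTTGGCGC on either strand. Capitals mark these letters, and where matches on opposite strands share bases the capitals run together. The windows are Mcm5 at chr8:75109259-75109558 on the plus strand, Mcm6 at chr1:128359656-128359955 on the minus strand and Rrm2 at chr12:24708004-24708303 on the plus strand, each written along the gene's own strand.
Mcm5: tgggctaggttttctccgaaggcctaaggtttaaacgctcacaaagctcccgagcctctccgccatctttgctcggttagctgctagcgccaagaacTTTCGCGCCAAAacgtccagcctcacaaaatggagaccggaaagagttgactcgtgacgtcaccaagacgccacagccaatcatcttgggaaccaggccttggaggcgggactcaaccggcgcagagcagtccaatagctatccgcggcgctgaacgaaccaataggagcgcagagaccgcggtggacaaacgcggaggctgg
Mcm6: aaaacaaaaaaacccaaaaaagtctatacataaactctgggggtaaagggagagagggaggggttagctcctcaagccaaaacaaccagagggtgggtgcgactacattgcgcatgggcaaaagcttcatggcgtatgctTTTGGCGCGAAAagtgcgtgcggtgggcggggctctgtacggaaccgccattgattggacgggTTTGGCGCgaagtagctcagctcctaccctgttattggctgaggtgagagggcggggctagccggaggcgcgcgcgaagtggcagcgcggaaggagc
Rrm2: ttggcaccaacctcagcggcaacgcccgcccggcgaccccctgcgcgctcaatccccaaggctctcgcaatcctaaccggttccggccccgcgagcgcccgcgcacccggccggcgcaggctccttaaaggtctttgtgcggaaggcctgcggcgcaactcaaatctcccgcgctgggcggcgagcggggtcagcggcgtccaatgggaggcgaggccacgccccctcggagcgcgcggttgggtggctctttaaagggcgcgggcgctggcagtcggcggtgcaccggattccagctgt
The Mcm5 window held matches starting 153 and 149 bases before the start site, the Mcm6 window held matches at 110, 106 and 47 bases before it, and the Rrm2 window held none. Of the 43 members with a window, 18 held the E2F letters (41.9%), against 4.41% of the genes tested in the primary tumor comparison and 2.6% of all genes in the promoter table. Mcm3, Mcm7, Cdc6, Cdt1, Orc1, Pola1, Pold1, Pole2, Rfc3, Gins3, Lig1, Dnmt1, Uhrf1, Clspn, Brca2 and E2f2 were the other members with a match. Mitotic genes often carry a different element, CHR (TTTGAA or TTCGAA, either strand), which 20.9% of the members and 80.0% of 30 mitosis genes held, against 21.7% of all genes. CCAAT boxes on either strand were found in 60.5% of the members and 41.1% of all genes. A match of letters does not show that a factor was bound.

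Replication genes were lower in TIMs than in BM IMs in all 3 TIM groups. The summed level of the 53 genes, in CPM (counts of a gene scaled to the size of its library, with TMM factors), was 4835 to 5435 in FVB BM IMs and 4498 to 4629 in DBA2 BM IMs. It was 760 to 1004 in primary tumor TIMs, 770 to 875 in lymph node TIMs and 693 to 873 in LN4K1 lung TIMs, and no TIM library reached any BM library. Fewer dividing cells in a sample and less of these mRNAs per cell cannot be told apart in bulk RNA. The median member held 13.1% of its BM level in primary tumor TIMs, 10.5% in lymph node TIMs and 13.3% in LN4K1 lung TIMs.

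In primary tumor TIMs, 53 of 53 members fell against FVB BM IMs at an adjusted p under 0.05 (edgeR quasi-likelihood test, Benjamini-Hochberg over 14569 genes), where 28.6% of all genes tested were called lower. The members' median log2 fold change was −2.95, against 0.08 over all genes tested. In lymph node TIMs, 51 of 53 fell (17.2% of 13273 genes), with a median of −3.24 against −0.04, and Orc1 (adjusted p = 0.0774) and Chek1 (adjusted p = 0.101) did not pass in edgeR. In LN4K1 lung TIMs, 51 of 53 fell against DBA2 BM IMs (11% of 13624 genes), with a median of −2.97 against 0.03, and Rpa3 (adjusted p = 0.0844) and E2f1 (adjusted p = 0.416) did not pass in edgeR. No member was higher in these comparisons, in which 33.3%, 20.2% and 13.9% of all genes tested were called higher: edgeR called 0, the count at an unadjusted p under 0.05 was also 0, and DESeq2 called 0. The primary tumor and lymph node comparisons share the 3 FVB BM libraries, so their values are not independent of each other. With replicate numbers as a block, 45 members stayed lower in lymph node TIMs. Cdc6, Gins1, Pola1, Pold1, E2f1 and E2f2 lost the call there, with edgeR adjusted p of 0.0511 to 0.125. Pold1 (adjusted p = 0.0365 with all libraries) also missed the threshold when any 1 FVB BM library was left out or without lymph node replicate 2, 3, 4 or 5 (0.0549 to 0.0867), and Exo1 (0.0275) without FVB BM replicate 1, 2 or 3 or lymph node replicate 5 (0.0537 to 0.0777).

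The libraries of the groups did not overlap for 53 members in primary tumor TIMs (27.4% of genes tested were lower without overlap), for 53 in lymph node TIMs (23.2%) and for 51 in LN4K1 lung TIMs (15.3%). No member was higher without overlap, against 30.6%, 19.7% and 19.2% of genes tested. The 2 that overlapped in LN4K1 lung TIMs were Rpa3 and E2f1. The sizes of the falls were wide: log2 fold changes below −2 were seen for 41, 37 and 38 members in primary tumor, lymph node and LN4K1 lung TIMs, and below −3 for 25, 29 and 26.

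**Figure D1:**
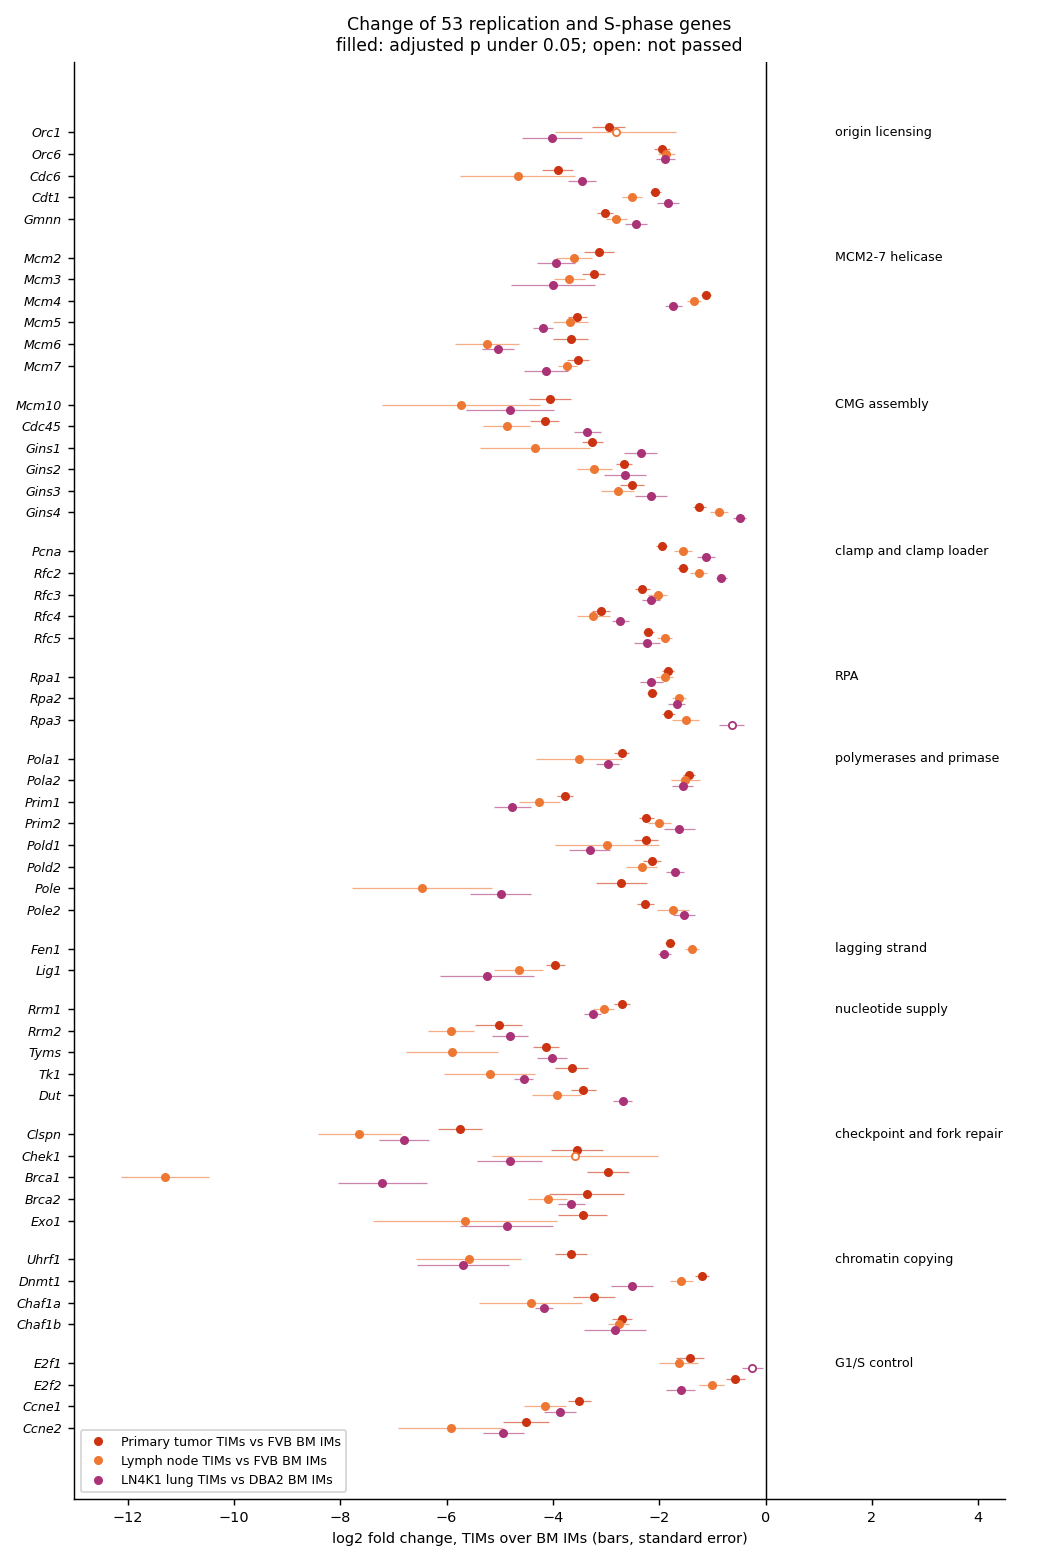
Log2 fold change of each of the 53 genes (rows, grouped by role) in primary tumor, lymph node and LN4K1 lung TIMs over the BM IMs of the same strain, with standard errors; filled points passed an adjusted p under 0.05 and open points did not. All points lie below 0, and the open points are Orc1 and Chek1 in lymph node TIMs and Rpa3 and E2f1 in LN4K1 lung TIMs. The Brca1 point in lymph node TIMs rests on 2 counts and its fold is not a measured size.

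At the stricter thresholds of the study (adjusted p under 0.0001 and a log2 fold change beyond 1), 45 members were lower in primary tumor TIMs (5.18% of genes tested), 28 in lymph node TIMs (1.7%) and 27 in LN4K1 lung TIMs (1.76%), and edgeR and DESeq2 called 0 members higher, where 7.72%, 4.01% and 1.21% of genes tested were, with 0 members higher at an unadjusted p under 0.05. These counts depended on single libraries. In lymph node TIMs the count was 10, 9 and 14 without FVB BM replicate 1, 2 or 3, and 13, 17, 18 and 13 without lymph node replicate 2, 3, 4 or 5. In LN4K1 lung TIMs it was 9, 7 and 7 without DBA2 BM replicate 1, 2 or 3, 12 without LN4K1 lung replicate 4, and 45 without LN4K1 lung replicate 3. With the replicate block it was 0 in lymph node TIMs, where 51 members had an unadjusted p under 0.05 and DESeq2 without the block called 42 at these thresholds.

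Several libraries stood apart within their group. LN4K1 lung replicate 3 had the lowest level of its group for 31 members and the highest for 12, and primary tumor replicate 3 had the lowest for 29 and the highest for 2. Lymph node replicate 1 listed 10 members at 0 counts, was lowest for 18 and was highest for 16. In LN4K1 lung replicate 3 the members that were lowest had a median exon length of 4268 bases and those that were highest 3194 bases. In lymph node replicate 1 these were 4264 and 2826 bases, and in primary tumor replicate 3 they were 4268 and 3843 bases. FVB BM replicate 1, in a group of 3, had 4859 and 2993 bases. The part of transcript length in these values was not tested. Without LN4K1 lung replicate 3, 52 members were lower, without primary tumor replicate 3, 53, and without lymph node replicate 1, 53, with Orc1 (adjusted p = 0.00842) and Chek1 (0.0107) then passing in edgeR.

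Origin licensing genes had median log2 changes of −2.95, −2.81 and −2.43 in primary tumor, lymph node and LN4K1 lung TIMs, with 5, 4 and 5 of 5 members called. Cdt1, which loads the MCM ring, was at 90.8, 93.4 and 98.2 CPM in FVB BM IMs and 82.4, 73.8 and 77.1 CPM in DBA2 BM IMs. It was at 20.2 to 25 CPM in primary tumor TIMs, 11.4 to 20.2 CPM in lymph node TIMs and 14.2 to 27.3 CPM in LN4K1 lung TIMs. The Cdt1 log2 fold changes over BM IMs were −2.07 ± 0.10 (SE), −2.51 ± 0.19 and −1.84 ± 0.21, and no TIM library reached a BM library. Gmnn encodes geminin, the protein that blocks CDT1 after S phase has begun, and it changed by −3.02 ± 0.14, −2.80 ± 0.19 and −2.43 ± 0.21. The loader Cdc6 ranged from 28.5 to 47.3 CPM over the 6 BM libraries and from 0 to 4.68 CPM over the 15 TIM libraries. Orc6 showed close to the same change in each site (−1.95, −1.87 and −1.88), while Orc1 in lymph node TIMs was spread from 0 to 3.72 CPM.

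The MCM2-7 ring genes fell in all 3 comparisons, 6 of 6 each time, with medians of −3.38, −3.68 and −4.06. Mcm4 fell least. Its level was 126, 149 and 153 CPM in FVB BM IMs and 141, 149 and 156 CPM in DBA2 BM IMs. Primary tumor TIMs had 61.0, 68.0, 69.6, 67.6 and 65.9 CPM, lymph node TIMs 51.5, 57.6, 60.3, 61.0 and 48.5 CPM, and LN4K1 lung TIMs 46.4, 53.7, 34.7, 53.3 and 44.7 CPM. The Mcm4 libraries of a group lay close together and the TIM and BM libraries did not overlap. Its log2 fold changes were −1.12 ± 0.09 (adjusted p = 8.67e-06), −1.34 ± 0.13 (adjusted p = 3.66e-05) and −1.73 ± 0.15 (adjusted p = 4.54e-05) by edgeR. Mcm6 fell most of the 6, from 340, 377 and 349 CPM in FVB BM IMs to 27.0, 38.5, 10.8, 37.1 and 27.9 CPM in primary tumor TIMs and to 2.80, 4.57, 23.9, 8.11 and 7.40 CPM in lymph node TIMs. In LN4K1 lung TIMs it was at 8.70, 13.3, 4.48, 8.15 and 10.9 CPM, against 288, 290 and 277 CPM in DBA2 BM IMs. The Mcm6 changes were −3.67 ± 0.34, −5.23 ± 0.60 and −5.03 ± 0.30, and the highest TIM library lay well under the lowest BM library. Mcm5 changed by −3.54 ± 0.18, −3.68 ± 0.33 and −4.18 ± 0.19, and Mcm7 by −3.52 ± 0.21, −3.73 ± 0.18 and −4.13 ± 0.41.

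The 6 ring subunits are used in equal number in the complex, and their mRNA levels per kilobase of exon took another order in TIMs than in BM IMs. Exon length joins the exons of all annotated transcripts of a gene, 6956 bases for Mcm2 and 3589 for Mcm4. The order between subunits depends on these lengths, while the change of a subunit between groups does not. In FVB BM IMs the order from high to low was Mcm5 (88.5 ± 8.48 CPM per kb, SD), Mcm6 (76.1), Mcm3 (62.5), Mcm7 (41.6), Mcm4 (39.7) and Mcm2 (24.5), in which Mcm7 and Mcm4 lay close together. In DBA2 BM IMs Mcm5 (88.6 ± 2.06 CPM per kb) and Mcm6 (61.1) again led, and Mcm4 (41.4) and Mcm7 (38.8) lay close together. Mcm4 was the most abundant subunit in 15 of 15 TIM libraries, at 18.5 ± 0.924 CPM per kb in primary tumor TIMs, 15.5 ± 1.54 in lymph node TIMs and 13.0 ± 2.16 in LN4K1 lung TIMs. Mcm5 was next, at 7.67 ± 1.67, 6.88 ± 3.26 and 5.08 ± 1.16 CPM per kb. Mcm4 made up 40.7%, 45.2% and 47.3% of the summed per-kilobase level of the ring in the 3 TIM groups, and Mcm5, the highest in marrow, 26.6% and 28.8% in FVB and DBA2 BM IMs. No exon base of Mcm4 (chromosome 16, 15623897 to 15637400, minus strand, GRCm38) or of Mcm5 and Mcm6 is shared with another annotated gene. Mcm7 shares 12.6% of its exon bases with other annotated genes, and its counts, made without strand, could hold their reads.

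**Figure D2:**
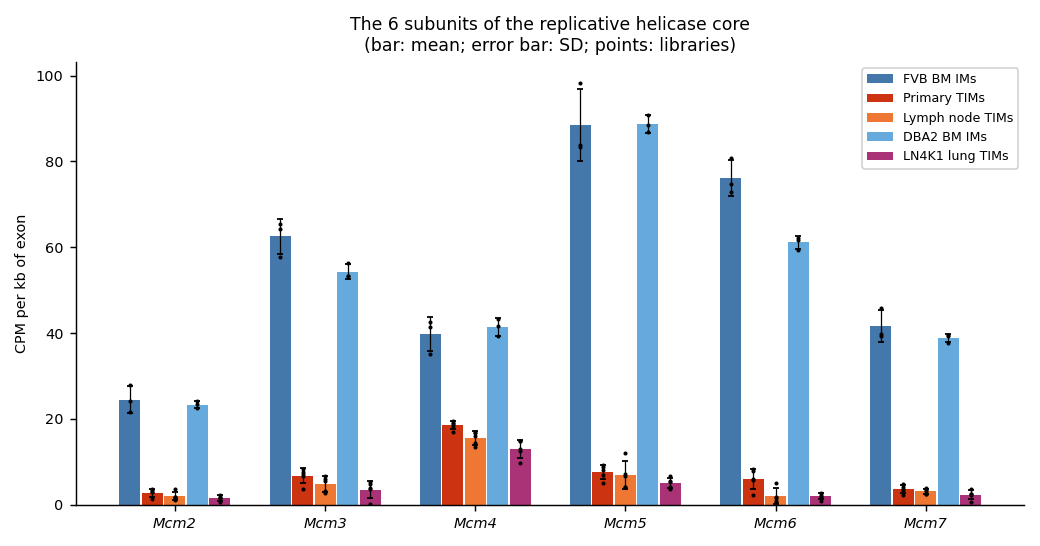
Level per kilobase of exon of the 6 MCM2-7 genes in the 5 groups; bars are means, error bars SD and dots single libraries (n = 3 for BM IMs, n = 5 for TIMs). Mcm5 is the highest bar in both BM groups, and Mcm4 is the highest in the 3 TIM groups at 18.5, 15.5 and 13.0 CPM per kb.

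The genes that turn the loaded ring into an active helicase had median log2 changes of −2.96, −3.78 and −2.49, with 6 of 6 called in each comparison. Gins4 fell least among them: FVB BM IMs had 86.9, 89.5 and 60.4 CPM and DBA2 BM IMs 61.0, 63.3 and 61.7 CPM. Primary tumor TIMs had 36.5, 34.7, 29.3, 32.7 and 35.2 CPM, lymph node TIMs 45.6, 49.2, 34.4, 38.1 and 45.7 CPM, and LN4K1 lung TIMs 39.5, 41.3, 50.2, 44.7 and 55.2 CPM. The gap to the BM libraries was widest in primary tumor TIMs and narrowest in LN4K1 lung TIMs, with no overlap in any of them. The log2 changes were −1.24 ± 0.13, −0.88 ± 0.17 and −0.49 ± 0.13, the last with an adjusted p of 0.0219 in edgeR, and of 0.116 with the replicate block. That Gins4 call was lost when any 1 DBA2 BM library was left out (0.0636 to 0.0865) and without LN4K1 lung replicate 2 (0.0522) or 4 (0.0529). GINS is a complex of 4 subunits, and Gins4 was the highest per kilobase in 21 of 21 libraries. Joined exon lengths differ, 4097 bases for Gins2 and 1349 for Gins4, so shares per kilobase depend on them. The Gins4 share of the summed GINS level per kilobase was 65.8% in FVB BM IMs and 65.4% in DBA2 BM IMs. It was 85.3%, 91.8% and 87.3% in the TIM groups, since Gins1, Gins2 and Gins3 fell further. Cdc45, the GINS partner, changed by −4.16 ± 0.27, −4.86 ± 0.44 and −3.35 ± 0.25. Gins2 shares 67.3% of its exon bases with another annotated gene, and its counts, made without strand, could hold reads of that gene.

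The PCNA clamp and its loader fell less, with median log2 changes of −2.20, −1.90 and −2.16, with 5 of 5 called each time. Pcna, the sliding ring that tethers polymerases, was at 191, 175 and 142 CPM in FVB BM IMs and 107, 120 and 141 CPM in DBA2 BM IMs. It was at 38.8 to 47.3 CPM in primary tumor TIMs, 44.9 to 67.4 CPM in lymph node TIMs and 49.0 to 75.2 CPM in LN4K1 lung TIMs. Its changes were −1.95 ± 0.11, −1.55 ± 0.17 and −1.12 ± 0.16, and no library overlapped; Pcna has annotated pseudogenes with which it may share reads. Of the loader genes, Rfc2 changed by −1.56 ± 0.10, −1.26 ± 0.16 and −0.83 ± 0.10 and kept 87.3 to 146 CPM in TIMs, while Rfc4 changed by −3.10 ± 0.17, −3.24 ± 0.31 and −2.73 ± 0.16. Rfc2 was the highest loader subunit per kilobase in every group. Its share of the 4 was 38.3% in FVB BM IMs, 56.6% in primary tumor TIMs and 59.1% in lymph node TIMs. It was 40.3% in DBA2 BM IMs and 67.6% in LN4K1 lung TIMs. Rfc2, Rfc4 and Rfc5 share 15.1%, 12.65% and 10.69% of their exon bases with other annotated genes on the opposite strand. Their counts, made without strand, could hold reads of those genes, and the part of this in the Rfc2 level was not tested.

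RPA, the trimer that coats single-stranded DNA, had median log2 changes of −1.83, −1.62 and −1.67, the smallest of the 11 roles. Its 3 subunits were near each other per kilobase in FVB BM IMs (30.5 to 32.9 CPM per kb) and fell by about the same amount in primary tumor TIMs (−1.83, −2.13 and −1.83 for Rpa1, Rpa2 and Rpa3). In LN4K1 lung TIMs Rpa1 changed by −2.14 ± 0.21 and Rpa2 by −1.67 ± 0.16, and Rpa3 had a log2 fold change of −0.64 ± 0.24 that did not pass. Rpa3 was at 28.3, 29.2 and 30.4 CPM in DBA2 BM IMs and at 15.1, 15.6, 31.7, 16.0 and 20.3 CPM in LN4K1 lung TIMs. Replicate 3 alone lay above the BM libraries, and without it the Rpa3 change was −0.87 (adjusted p = 0.000646 by edgeR).

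Polymerase and primase genes had medians of −2.26, −2.66 and −2.34, with 8 of 8 called in each comparison. Prim1, the catalytic primase that starts each Okazaki fragment, was at 69.0, 75.4 and 50.3 CPM in FVB BM IMs and 4.32 to 5.86 CPM in primary tumor TIMs, a change of −3.77 ± 0.15 (adjusted p = 1.59e-07, edgeR). It was at 1.45 to 5.19 CPM in lymph node TIMs (−4.25 ± 0.38) and 0.88 to 2.83 CPM in LN4K1 lung TIMs (−4.76 ± 0.35). Its partner subunits fell less: Pola2 changed by −1.43 ± 0.11, −1.51 ± 0.27 and −1.56 ± 0.19, and Prim2 by −2.24 ± 0.14, −2.0 ± 0.21 and −1.62 ± 0.29. Pole, the catalytic subunit of the leading-strand polymerase, was at 12.6, 13.9 and 12.8 CPM in FVB BM IMs and at 0, 0.0660, 0, 0.0743 and 0.592 CPM in lymph node TIMs. Its accessory subunit Pole2 was at 23.2 to 27.3 CPM and 5.16 to 12.6 CPM in these groups. On the lagging strand, Lig1, which seals Okazaki fragments, changed by −3.95 ± 0.19, −4.65 ± 0.46 and −5.24 ± 0.88, and Fen1, the flap nuclease that trims them, by −1.8 ± 0.09, −1.38 ± 0.13 and −1.91 ± 0.12. Fen1 shares 84.2% of its exon bases with other annotated genes, so its level is uncertain.

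Genes of deoxynucleotide supply had median log2 changes of −3.64, −5.18 and −4.01, with 5 of 5 called in each comparison. Rrm2, the S-phase subunit of ribonucleotide reductase, was at 318, 376 and 295 CPM in FVB BM IMs and 292, 287 and 291 CPM in DBA2 BM IMs. Primary tumor TIMs had 8.14, 18.5, 3.23, 11.1 and 10.5 CPM, lymph node TIMs 10.4, 2.88, 4.74, 2.62 and 6.43 CPM, and LN4K1 lung TIMs 9.29, 13.0, 4.23, 13.2 and 14.3 CPM. All 15 TIM libraries were far under the 6 BM libraries, and replicate 3 was the lowest in both primary tumor and LN4K1 lung TIMs. The changes were −5.02 ± 0.44 (adjusted p = 1.59e-05), −5.92 ± 0.44 (adjusted p = 6.35e-06) and −4.81 ± 0.35 (adjusted p = 1.26e-05) by edgeR. Rrm1, the large subunit that also serves DNA repair, fell less, by −2.70 ± 0.15, −3.04 ± 0.20 and −3.25 ± 0.16. Tyms, thymidylate synthase, changed by −4.13 ± 0.24, −5.89 ± 0.86 and −4.01 ± 0.29, and Tk1, the S-phase thymidine kinase, by −3.64 ± 0.31, −5.18 ± 0.85 and −4.55 ± 0.18. Lymph node replicate 1 held 0 CPM of Tyms and 0.0121 CPM of Tk1, the lowest of its group. Tyms has an annotated pseudogene with which it may share reads.

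**Figure D3:**
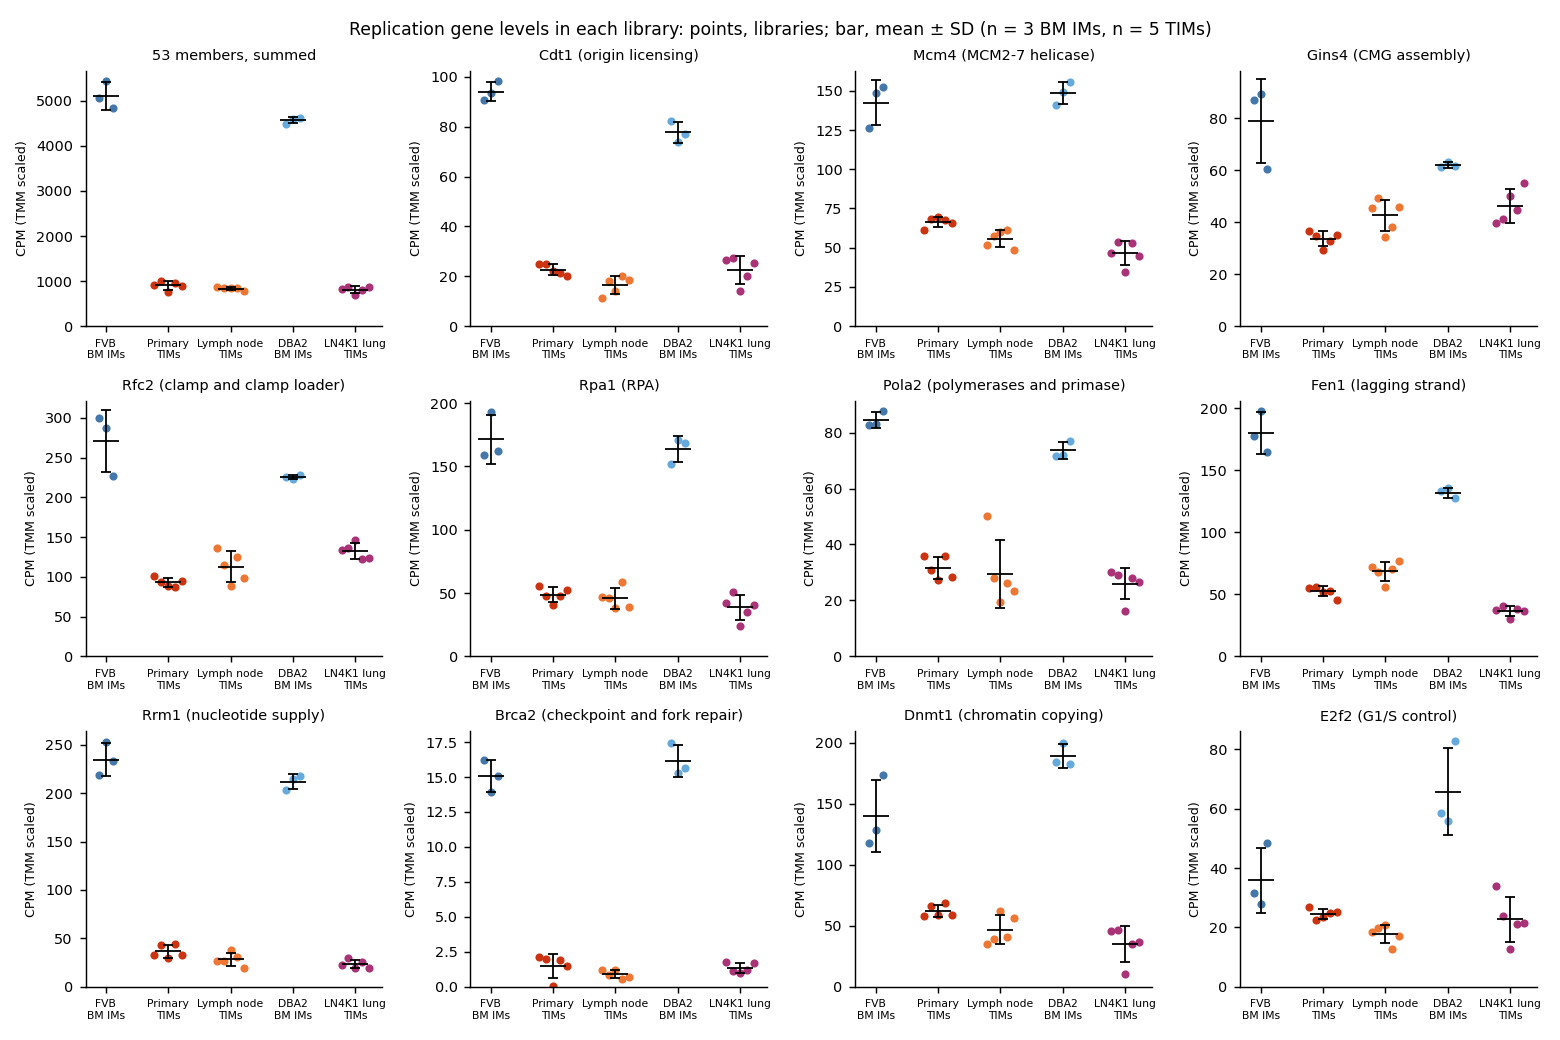
Level of the member with the highest mean log2 CPM over all libraries in each role, and the sum of all 53, in each library (points) with the group mean and SD, in CPM; n = 3 for BM IMs and n = 5 for TIMs. The sum lies between 4498 and 5435 CPM in the BM libraries and between 693 and 1004 CPM in the TIM libraries.

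Checkpoint and fork repair genes had median log2 changes of −3.44, −5.65 and −4.87, with 5, 4 and 5 of 5 called. They were low throughout, summing to 80.0 to 95.4 CPM in BM IMs and 0.924 to 9.30 CPM in TIMs. Clspn encodes claspin, which carries the checkpoint signal to CHK1, and changed by −5.74 ± 0.41, −7.64 ± 0.78 and −6.80 ± 0.47. The last 2 rest on 0 to 24 counts per lymph node library and 3 to 33 per LN4K1 lung library, so their size is uncertain. Brca1, a repair factor that protects stalled forks, was at 12.7, 17.1 and 17.8 CPM in FVB BM IMs and at 3.58, 1.75, 0.713, 2.07 and 2.21 CPM in primary tumor TIMs. In lymph node TIMs it was at 0 counts in 4 libraries and at 2 counts in replicate 5, against 4772 counts over the 3 FVB BM libraries. The level over all lymph node libraries was 0.0305% of the FVB BM level, with an exact 95% counting interval of 0.00369% to 0.11% that leaves out replicate spread. Brca2 kept 0.52 to 1.16 CPM in lymph node TIMs, a change of −4.10 ± 0.37 from 13.9 to 16.2 CPM in FVB BM IMs. Chek1 in lymph node TIMs was at 3.42, 0, 0, 0.978 and 0.0829 CPM, with replicate 1 the highest.

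Genes that copy chromatin behind the fork had median log2 changes of −2.96, −3.59 and −3.50, with 4 of 4 called each time. Dnmt1, the maintenance DNA methyltransferase, fell least, from 118, 128 and 174 CPM in FVB BM IMs to 57.7 to 68.9 CPM in primary tumor TIMs (−1.20 ± 0.14) and 34.8 to 62.1 CPM in lymph node TIMs (−1.58 ± 0.22). Its partner Uhrf1, which brings DNMT1 to newly copied DNA, changed by −3.66 ± 0.31 and −5.58 ± 0.98. In LN4K1 lung TIMs Dnmt1 changed by −2.51 ± 0.39 and Uhrf1 by −5.69 ± 0.86. The histone chaperone subunits Chaf1a and Chaf1b changed by −3.22 ± 0.39 and −2.70 ± 0.19 in primary tumor TIMs, and Chaf1a shares 52.5% of its exon bases with another gene.

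The G1/S control genes split by kind. The E-type cyclins, which drive entry into S phase with CDK2, fell strongly: Ccne1 changed by −3.50 ± 0.21, −4.15 ± 0.40 and −3.86 ± 0.30, and Ccne2 by −4.50 ± 0.43, −5.92 ± 0.98 and −4.93 ± 0.39. Ccne2 shares 17.4% of its exon bases with another annotated gene on the opposite strand. E2f1 and E2f2, activator E2F factors, fell less. E2f2 changed by −0.57 ± 0.17 (adjusted p = 0.0177), −1.01 ± 0.24 (adjusted p = 0.00737) and −1.59 ± 0.27 (adjusted p = 0.00252) by edgeR, and with the replicate block the adjusted p values were 0.101, 0.0539 and 0.084. Without FVB BM replicate 3, its call in primary tumor TIMs was lost (adjusted p = 0.0613). E2f1 was at 61.7, 44.1 and 22.2 CPM in FVB BM IMs, a wide spread, and at 13.3 to 19.4 CPM in primary tumor TIMs and 6.30 to 18.3 CPM in lymph node TIMs. In LN4K1 lung TIMs it was at 29.2, 28.0, 16.1, 23.7 and 26.9 CPM against 29.9, 25.8 and 28.8 CPM in DBA2 BM IMs. Those libraries overlapped, and the difference of −0.24 ± 0.20 was within their spread.

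The 18 members with E2F letters in the promoter window had median log2 fold changes of −3.09, −3.59 and −3.55, and the 25 members with a window and no match −2.96, −3.24 and −2.83. Mcm5 and Mcm6, with matches, and Rrm2, with none, are examples of both kinds among the large falls.

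Between lymph node and primary tumor TIMs, the number of members called differed with the fit. The median difference was −0.45 (lymph node minus primary tumor), and edgeR called 2 members higher (6.15% of 13488 genes tested) and 1 lower (5.55%), with 13 of 53 at an unadjusted p under 0.05. DESeq2 called 4 higher and 6 lower, and edgeR with all 5 groups in 1 fit called 2 higher and 5 lower. Rpa2 was at 24.3, 24.0, 22.5, 21.8 and 20.7 CPM in primary tumor TIMs and 27.2, 35.9, 30.5, 33.1 and 32.0 CPM in lymph node TIMs (0.50 ± 0.11, adjusted p = 0.0124, edgeR). Fen1 was at 54.8, 56, 51.9, 53 and 45.6 CPM and at 71.6, 67.8, 56.2, 70.2 and 76.7 CPM (0.40 ± 0.10, adjusted p = 0.0266, edgeR). Both were higher in all 5 lymph node libraries than in any primary tumor library, and neither passed with the replicate block (adjusted p = 0.0712 and 0.102). Brca1 was lower (adjusted p = 0.00168, edgeR), with 2 counts over 5 lymph node libraries against 925 over 5 primary tumor libraries, which is 0.235% of the primary tumor level (exact 95% counting interval 0.0284% to 0.851%). Its libraries did not overlap. An exact two-sided permutation test of the 5 against 5 libraries then gives p = 0.00794, the smallest this design allows, for any member without overlap. This p, not adjusted for the number of members, adds nothing to the lack of overlap. No overlap was seen for 4 members lower in lymph node TIMs (8.87% of genes tested), Brca1, Pole, Tyms and E2f2, and for 3 higher (5.54%), Rpa2, Fen1 and Rfc5. The count of lower members was 5 and 4 without lymph node replicate 1 or 3 and 2 without replicate 4 or 5. Fen1 lost its call, leaving 1 higher member, without primary tumor replicate 3, 4 or 5 or lymph node replicate 5 (adjusted p = 0.0519 to 0.075), and the count was 4 without lymph node replicate 3.

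No member differed between the BM IMs of the 2 strains by more than 0.89 on the log2 scale. DBA2 minus FVB had a median of −0.21, with 8 members lower (9.57% of 12905 genes tested) and 3 higher (11.5%). The lower ones were Rfc3 (−0.70 ± 0.14), Dut (−0.62 ± 0.13), Gins2 (−0.53 ± 0.16), Chaf1b (−0.43 ± 0.11), Fen1 (−0.42 ± 0.09), Tyms (−0.40 ± 0.11), Cdc45 (−0.38 ± 0.11) and Mcm6 (−0.29 ± 0.08). The higher ones were E2f2 (0.89 ± 0.24), Pole (0.75 ± 0.15) and Pold1 (0.62 ± 0.17). Pole was at 12.6, 13.9 and 12.8 CPM in FVB and 23.4, 22.2 and 19.5 CPM in DBA2 BM IMs. The libraries did not overlap for 21 members lower in DBA2 (21.6% of genes tested) and 5 higher (20.5%). The counts of calls depended on FVB replicate 3: without it 22 members were lower and 5 higher. The lower count was 3 without FVB replicate 1, 2 without DBA2 replicate 1, and 0 without FVB replicate 2, DBA2 replicate 2 or DBA2 replicate 3, when edgeR gave 9, 11 and 12 lower at an unadjusted p under 0.05 and DESeq2 on all libraries called 12. The higher count was 1 when any 1 of the other 5 libraries was left out.

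The falls in the 2 tumor models were compared by an interaction term (the change in primary tumor TIMs over FVB BM IMs minus that in LN4K1 lung TIMs over DBA2 BM IMs). Of the 53 members, 6 had a positive difference (13.2% of 15182 genes tested) and 5 a negative one (13.3%), so the shares were near or under the background. The positive ones, which fell further in LN4K1 lung TIMs, were Brca1 (4.26 ± 0.94), Pole (2.29 ± 0.80), Mcm6 (1.38 ± 0.47), Dnmt1 (1.32 ± 0.46), E2f2 (1.04 ± 0.36) and Mcm4 (0.63 ± 0.19). Brca1 was at 6, 34, 0, 2 and 14 counts in the LN4K1 lung libraries, so the size of its difference is uncertain. The negative ones, which fell further in primary tumor TIMs, were Rpa3 (−1.17 ± 0.28), E2f1 (−1.15 ± 0.36), Pcna (−0.81 ± 0.20), Gins4 (−0.73 ± 0.18) and Rfc2 (−0.71 ± 0.14). Strain, cell line, route and site all differ between the models and cannot be told apart. The positive count fell to 1 without FVB BM replicate 1 or DBA2 BM replicate 3. It was 2 without FVB BM replicate 2, DBA2 BM replicate 1 or 2, LN4K1 lung replicate 4 or primary tumor replicate 2, 4 or 5, and 3 without primary tumor replicate 1. It rose to 10 without LN4K1 lung replicate 3. Among the negative ones, E2f1 missed the threshold without FVB BM replicate 1 or 2 (edgeR adjusted p = 0.0904 and 0.0637) and without DBA2 BM replicate 2 or 3 (0.0709 and 0.0571).

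Further genes of the same machinery had smaller median changes than the members. Of 34 further replication factors, 29, 22 and 25 were lower in primary tumor, lymph node and LN4K1 lung TIMs, with medians of −1.48, −1.45 and −0.99 and 1 was higher in LN4K1 lung TIMs. Genes of mitosis had larger median falls than the members: 35 of 35 were lower in each comparison, with medians of −3.96, −5.62 and −5.21. Among 17 other nucleotide enzymes, 10, 8 and 9 were lower and 2 were higher in each comparison, with medians of −0.56, −0.76 and −0.52. Of 29 genes of the RB, E2F and CDK network, 16 were lower and 7 higher in primary tumor TIMs, with a median of −0.77. In lymph node TIMs 14 of 28 tested were lower and 7 higher, and in LN4K1 lung TIMs 16 of 28 and 6.

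Samhd1, Cdkn1a, Ccnd2 and Ccna2, outside the members, are given as examples that were chosen after their values were seen. Samhd1, an enzyme that breaks down deoxynucleotides, was higher in TIMs: 614 ± 77.9 CPM (SD, n = 3) in FVB BM IMs and 680 ± 44.7 CPM in DBA2 BM IMs, against 1878 ± 67.2 CPM in primary tumor, 3072 ± 483 CPM in lymph node and 1563 ± 260 CPM in LN4K1 lung TIMs. Cdkn1a, which encodes the CDK inhibitor p21, was at 252 ± 23.7 and 339 ± 23.1 CPM in FVB and DBA2 BM IMs and 885 ± 145, 801 ± 139 and 775 ± 114 CPM in the TIM groups. The log2 changes were 1.60, 2.33 and 1.14 for Samhd1 and 1.8, 1.67 and 1.13 for Cdkn1a, all called. Ccnd2, a D-type cyclin of G1, was also called higher (2.72, 2.98 and 2.40), from a low level of 1.17 to 4.37 CPM in BM IMs. Ccna2, the cyclin of S and G2 phase, was called lower (−4.61, −9.26 and −5.30).

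**Figure D4:**
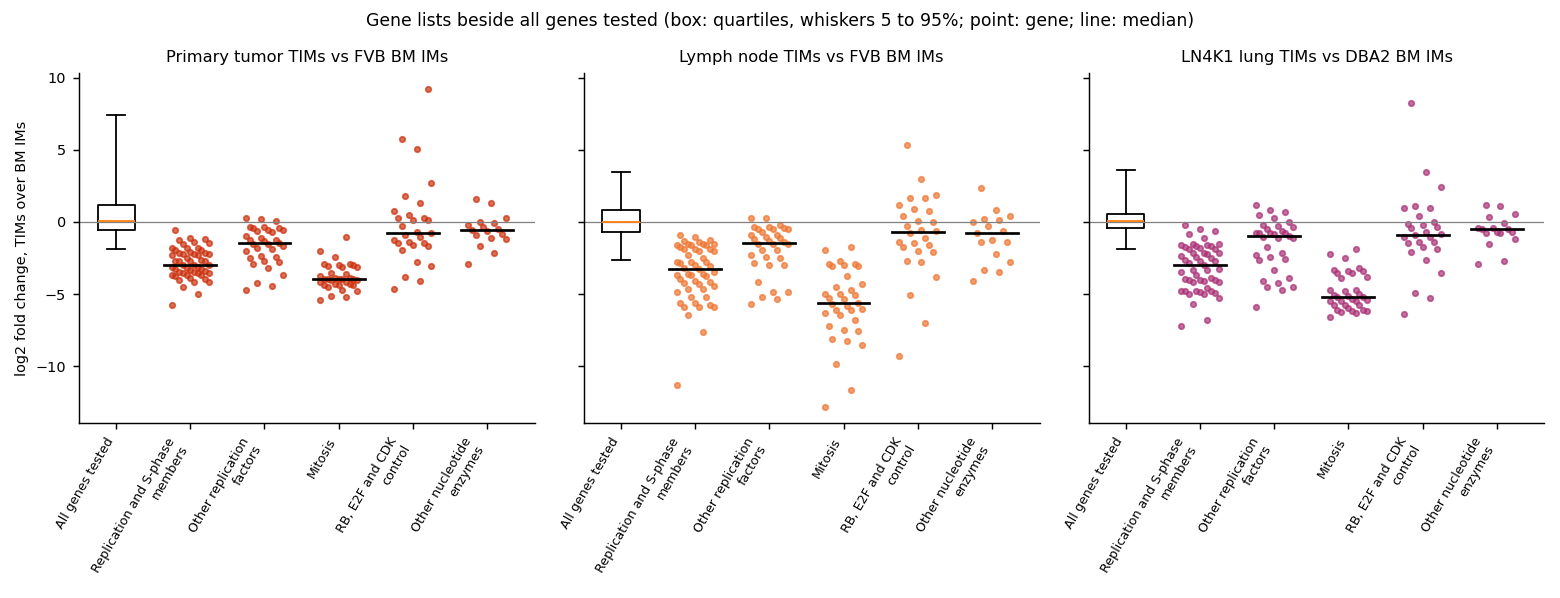
Log2 fold changes of the members and of 4 other gene lists beside all genes tested (boxes with quartiles and 5 to 95% whiskers) in the 3 comparisons of TIMs with BM IMs; points are genes and lines medians. The members' medians are −2.95, −3.24 and −2.97, those of mitosis genes −3.96, −5.62 and −5.21, and those of all genes 0.08, −0.04 and 0.03.

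Marker genes of the sort were detected in all groups: the 6 IM markers (Ptprc, Itgam, Ly6c2, Ly6c1, Ccr2, Csf1r) summed to 5499 to 6609 CPM in BM IMs and 6984 to 9865 CPM in TIMs. They did not move together: 4, 3 and 2 of 6 were called higher in primary tumor, lymph node and LN4K1 lung TIMs, Ptprc in each, and 2, 2 and 2 were called lower, Ly6c2 and Ly6c1 in each. Of all genes tested, 33.3%, 20.2% and 13.9% were called higher in these comparisons and 28.6%, 17.2% and 11% lower. Markers of neutrophil precursors, which divide in the marrow, moved with the replication genes. Their 9 genes summed to 4124 to 5109 CPM in FVB BM IMs and 2936 to 3554 CPM in DBA2 BM IMs, and to 35.8 to 136, 20.03 to 88.6 and 189 to 509 CPM in primary tumor, lymph node and LN4K1 lung TIMs, with none at 0 in every library of a group. They were called lower in 9, 8 and 9 of 9 genes. The most abundant, Mpo and Ngp, were at means of 1379 and 1332 CPM in FVB BM IMs, 1624 and 364 CPM in DBA2 BM IMs, and at most 53.1 and 79.7 CPM in a TIM group. Mitosis genes moved likewise, summing to 4307 to 5247 CPM in BM IMs and 242 to 468 CPM in TIMs. Markers of early marrow progenitors (8 genes) summed to 53 to 75.4 CPM in BM IMs and 31.9 to 100.6 CPM in TIMs, and mature neutrophil markers (7 genes in the table) to 1008 to 2510 CPM and 648 to 2088 CPM, with overlap in both. Erythroid markers (7 genes in the table) were at most 12 CPM in BM IMs and 0.871 CPM in TIMs. The part of neutrophil precursors or erythroid cells in the fall of the replication genes was not tested.

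Markers of other cells moved in both directions. Their higher calls stand beside 33.3%, 20.2% and 13.9% of all genes tested in primary tumor, lymph node and LN4K1 lung TIMs. Fibroblast genes (6) summed to 376 to 1122 CPM in primary tumor TIMs, 12.2 to 107 CPM in lymph node TIMs and 1.81 to 42.6 CPM in LN4K1 lung TIMs, against at most 9.24 CPM in BM IMs. Epithelial and squamous genes (9) summed to 1.46 to 140 CPM in TIMs and at most 2.48 CPM in BM IMs, with Krt6a and Trp63 at 0 in every lymph node library and Krt5 and Krt6a at 0 in every LN4K1 lung library. T cell genes (6) summed to 6.21 to 91.8 CPM in TIMs and at most 2.53 CPM in BM IMs. Of these, 4, 3 and 4 were called higher in primary tumor, lymph node and LN4K1 lung TIMs. NK cell genes (5) summed to 0.0631 to 8.41 CPM in the FVB BM libraries. Primary tumor (3.02 to 4.14 CPM) and lymph node TIMs (2.02 to 3.02 CPM) lay within that range, with 1 of 5 and 0 of 2 tested genes called higher. For LN4K1 lung TIMs the NK sum was 5.81 to 13.6 CPM, against at most 0.213 CPM in the DBA2 BM libraries. There, 3 of 4 tested genes were called higher. Dendritic cell genes (6) summed to 71.6 to 94.1 CPM in BM IMs, and to 138 to 346, 75.1 to 786 and 89.2 to 316 CPM in primary tumor, lymph node and LN4K1 lung TIMs, with 4, 3 and 2 called higher and 1 called lower in LN4K1 lung TIMs. Endothelial genes (5) summed to 4.85 to 13.6 CPM in BM IMs, 51.6 to 71.0 CPM in primary tumor, 55.5 to 110 CPM in lymph node and 5.70 to 15.7 CPM in LN4K1 lung TIMs. Alveolar macrophage genes (6 in the table) summed to less in primary tumor (21.9 to 36.4 CPM) and lymph node TIMs (38 to 77.6 CPM) than in FVB BM IMs (90.5 to 115 CPM) in every library, with 1 gene called higher and 1 lower in each. In LN4K1 lung TIMs they summed to 20.3 to 36.3 CPM, against 36.3 to 56.7 CPM in DBA2 BM IMs. Of 5 tested there, 1 was called higher and 1 lower, with log2 fold changes from −1.49 to 10.96. Marco, Car4 and Fabp1 were at 0 in every DBA2 BM library. B cell genes (6) summed to 20.6 to 41.1 CPM in BM IMs and 10.2 to 35.7 CPM in TIMs. In primary tumor TIMs, the fibroblast genes summed to 547, 1051, 376, 1122 and 707 CPM in replicates 1 to 5, and the members to 916, 1004, 760, 954 and 886 CPM. The lowest library was replicate 3 in both, and the highest was replicate 4 for the fibroblast genes and replicate 2 for the members. In lymph node TIMs, replicate 1 had the lowest fibroblast sum (12.2 CPM) and the highest member sum (875 CPM). In LN4K1 lung TIMs, replicate 3 was lowest in both (1.81 and 693 CPM). The part of these cells in the member levels was not tested.

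**Figure D5:**
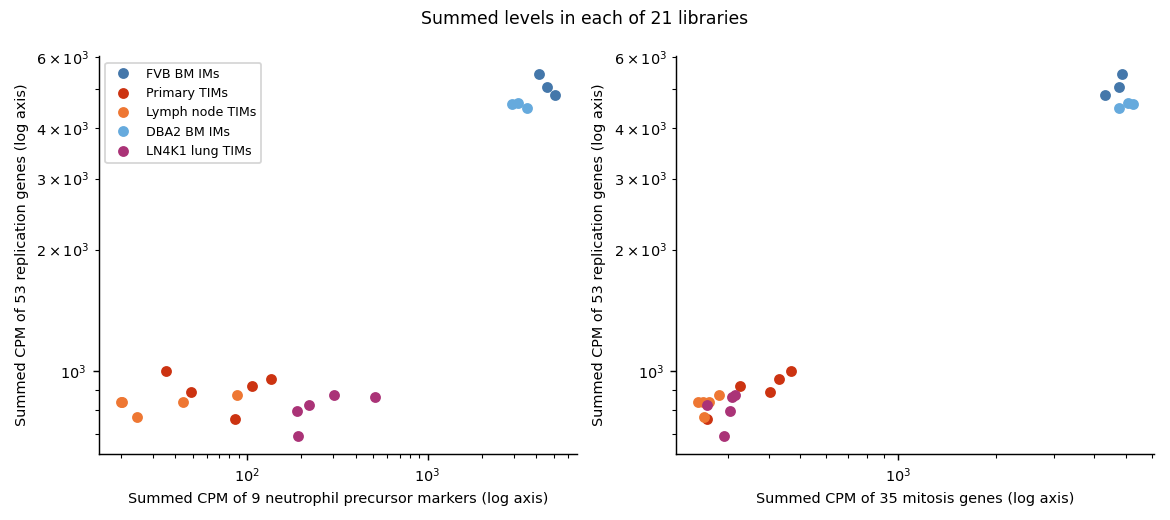
Summed level of the 53 members (vertical, log axis, CPM) against the summed level of mitosis genes and of neutrophil precursor markers (horizontal, log axes, CPM) in each of the 21 libraries, colored by group. The 6 BM libraries, at 4498 to 5435 CPM, lie apart from the 15 TIM libraries, at 693 to 1004 CPM, on both axes.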

How the data were processed

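RNA-Seq libraries were made without strand by SMARTer amplification and Nextera XT, as the labels give it. The authors trimmed reads with BBDuk, aligned them to mm10 with BBMap, used SAMtools 1.8 and counted reads per gene with featureCounts 1.5.2, and deposited raw counts of 23420 genes in 21 libraries. Total counts were 80772922 to 101043568 per library, so depth limited only genes near 0, and intervals on counts cover counting error only. Without strand, reads of overlapping antisense genes cannot be told apart.

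Each comparison was fitted on its own groups, over all genes, with edgeR 4.0.16 (TMM, filterByExpr with a minimum of 10 counts, robust quasi-likelihood test, Benjamini-Hochberg) in R 4.3.3, and a call is an adjusted p under 0.05. Standard errors came from the fold change and its F statistic. DESeq2 1.42.0, other filters, other size factors, a fit of all 5 groups, a replicate block and leaving out each library were alternatives. The scripts were tested on simulated data. CPM are TMM scaled, and levels per kilobase use exon lengths from GENCODE vM21. These lengths join the exons of all transcripts of a gene and can exceed the length of its mRNA. The members and lists were chosen with earlier results of these data known. Members named were the 2 most abundant of each role by mean log2 CPM, those with the smallest p or largest change in a comparison, and those called against the majority, and others were added to complete a complex or role after their values were seen.

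Replicates of a group differed beyond sampling noise. Same-numbered libraries deviated together between lymph node TIMs and FVB BM IMs (correlations of 0.437, 0.129 and 0.327 over 6221 genes). Only there did each lymph node library with a same-numbered BM library correlate best with it, so blocked values stand beside that result. Same-numbered BM libraries of the 2 strains also had positive but small correlations (0.054, 0.03 and 0.052). This pairing comes from the data, not from the labels.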

Additional observations from a re-analysis of the deposited data

Results flagged for a closer look

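In groups of 5 libraries, the gap of the highest or lowest library to its neighbor was compared with the group's range (limit 0.71). Of 159 pairs of member and group, 30 passed. The limit stands for about 1 in 20 only if values are normal and independent, and members of a library can move together. Only members were tested, so whether they passed more often than other genes is not known. LN4K1 lung replicate 3 gave 9 of the 30 and primary tumor replicate 3 gave 8, all low values, and lymph node replicate 1 gave 5. LN4K1 lung replicate 3 and lymph node replicate 1 also stood apart beyond the members. Chi-square per degree of freedom over all genes compared was 431.6 to 859.9 for pairs with LN4K1 lung replicate 3. It was 45.54 to 248.2 for other pairs of that group. For pairs with lymph node replicate 1 it was 292.5 to 514.6, and for other lymph node pairs 155.7 to 247.6. The cause was not tested.

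Primary tumor replicate 3 was far below the others for Mcm2 (8.82 CPM), Mcm3 (14.2 CPM), Mcm6 (10.8 CPM), Mcm10 (0.6545 CPM), Pold1 (11.5 CPM), Tk1 (1.99 CPM), Brca2 (0.04675 CPM) and Ccne2 (0.234 CPM). Replicate 5 was low for Cdc6 (1.31 CPM), and replicate 2 was high for Prim1 (5.86 CPM).

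Lymph node replicate 1 was low for Pola1 (0.0848 CPM), Pold1 (0.0121 CPM), Tyms (0 CPM) and Tk1 (0.0121 CPM), and high for Pole2 (12.6 CPM). Replicate 4 was high for Rfc5 (28.5 CPM) and Exo1 (1.61 CPM), and replicate 5 for Brca1 (0.0237 CPM, 2 counts).

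LN4K1 lung replicate 3 was low for Mcm3 (0.366 CPM), Mcm10 (0.0135 CPM), Gins2 (1.18 CPM), Rfc5 (8.56 CPM), Pola2 (16.4 CPM), Lig1 (0 CPM), Uhrf1 (0 CPM), Dnmt1 (10.1 CPM) and Chaf1b (0.65 CPM). Replicate 1 was low for Cdc6 (2.0 CPM) and Chek1 (0.0347 CPM), and replicate 2 for Pole (0.0836 CPM).

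The change over BM IMs differed between the 2 tumor models by the interaction term (edgeR) for 11 members. The 6 positive ones were 11.3% of the members, against 13.2% of 15182 genes tested. The 5 negative ones were 9.43%, against 13.3%, so the members differed no more often than other genes. The positive count was 1 to 10 without single libraries. On the log2 scale, primary tumor minus LN4K1 lung, the difference was 4.26 for Brca1, 2.29 for Pole, 1.38 for Mcm6, 1.32 for Dnmt1, 1.04 for E2f2 and 0.63 for Mcm4. It was −1.17 for Rpa3, −1.15 for E2f1, −0.81 for Pcna, −0.73 for Gins4 and −0.71 for Rfc2.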

How the results depend on the processing

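The counts of members lower in TIMs than in BM IMs were 52 to 53 in primary tumor, 49 to 53 in lymph node and 50 to 52 in LN4K1 lung TIMs when single libraries were left out, and no member changed sign in these comparisons under the alternatives run. Counts at the strict thresholds moved most. With the replicate block they were 0 in primary tumor, 0 in lymph node and 0 in LN4K1 lung TIMs by edgeR, with 52, 51 and 51 members lower at an unadjusted p under 0.05 and DESeq2 without the block calling 51, 42 and 46, and the block changed the smallest adjusted p to 0.000212, 0.000689 and 0.001932. The strict count was 45 in lymph node TIMs with all 5 groups in 1 fit, and 46 in LN4K1 lung TIMs with DESeq2 and 46 with its shrunken changes. Leaving out single libraries gave strict counts of 9 to 40 in lymph node and 7 to 45 in LN4K1 lung TIMs.

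Between lymph node and primary tumor TIMs, members called lower numbered 2 with DESeq2 size factors, 5 with all groups and 6 with DESeq2, and 1 to 5 without single libraries. Those called higher numbered 4 with DESeq2, 1 to 4 without single libraries, and 0 with the replicate block (5 at an unadjusted p under 0.05 in edgeR). Between strains, lower members numbered 2 with all groups, 4 with the replicate block and 0 to 22 without single libraries, and higher ones 1 with all groups, 5 with DESeq2 and 1 to 5 without single libraries. Positive interactions numbered 3 with no filter, 10 with DESeq2 and 1 to 10 without single libraries. The cause of these shifts was not tested.

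The replicate block left 52 and 44 members lower in primary tumor and LN4K1 lung TIMs. Same-numbered libraries there correlated at −0.297 to 0.074 and −0.034 to 0.177, those of lymph node and primary tumor TIMs at −0.225 to 0.245 and those of the strains at 0.03 to 0.054. Not every library correlated best with its own number, so in these comparisons the libraries share only a number.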
